A study of Homo sapiens with 4 samples.

Results

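The MAP kinase cascade genes outside p38 are the genes whose symbol starts with MAPK, MAP2K, MAP3K or MAP4K in the platform's probe-to-gene table. MAPK11, MAPK12 and MAPK13, which encode p38 kinases, were left out. The rule found 48 genes among the 14884 named genes measured, and it used no measured value. They were read in HUT78, a human T-cell line established from a cutaneous lymphoma, on 4 Affymetrix whole-transcript arrays, 1 sample each. CSH71-treated cells, which had received 250 nM of the compound for 30 h, gave 2 of the samples, and untreated cells the other 2. Both groups were the same cell line in the same serum-containing medium, and the labels give no vehicle for the untreated cells. Per the series, CSH71 targets the domain through which p38γ, the product of MAPK12, binds lipids. No label states that the duplicates were grown separately, and p-values may therefore reflect technical spread alone.

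A MAP kinase cascade passes a signal down tiers of protein kinases. MAP4K proteins act on MAP3K proteins, these phosphorylate MAP2K proteins, and each MAP2K phosphorylates a small number of MAP kinases. The main end points are the ERK, JNK, p38 and ERK5 kinases. In T cells they carry signals from the antigen receptor, cytokine receptors and stress to transcription factors such as those of the AP-1 family. These kinases are switched on mainly by phosphorylation, which an RNA array does not measure.

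The 48 genes were divided by symbol into 3 MAP4K genes, 17 MAP3K genes, 6 MAP2K genes, 7 MAP kinases, 10 partners with other names and 5 noncoding RNAs or pseudogenes. The label does not describe every one of them. MAPKAP1 encodes SIN1, a subunit of the mTORC2 complex, and MAP3K14 encodes NIK, the kinase of the alternative NF-κB pathway.

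The arrays had median intensities of 73.6 and 81.1 with CSH71 and 77.5 and 71.5 in untreated cells over all probe sets. Of 14 T-cell markers, 10 were measured, and their summed intensity was 9116 to 9954 on the CSH71 arrays and 9646 to 9776 on the untreated ones. LCK, the kinase that starts antigen receptor signalling, read 1157 and 1057 with CSH71 and 1018 and 1141 in untreated cells. The summed intensity of 4 measured B-cell markers was 647 to 752 with CSH71 and 734 to 854 in untreated cells. For 6 monocyte markers it was 532 to 623 with CSH71 and 525 to 694 in untreated cells. For 2 fibroblast markers it was 71.9 to 91.4 with CSH71 and 60.87 to 64.04 in untreated cells, and for 5 epithelial markers 2667 to 2986 and 2756 to 2912. Most of the epithelial sum was EPCAM, at 1943 and 2169 with CSH71 and 2087 and 2036 in untreated cells. Within the T-cell sum CD2 and CD28 were dim, at 60.9 to 91.6 and 65.0 to 107 over the 4 arrays. CD3D, CD3E and CD3G were not analysed here. None of the 27 markers measured passed the limma threshold, and no marker was at 0 on any array. In a bulk sample fewer cells with a transcript and less of it per cell cannot be told apart.

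No gene in any tier of the cascade showed a difference between CSH71-treated and untreated cells that passed the test. In limma fits of log2(intensity + 16) over all named genes, 0 of the 48 members passed an adjusted p of 0.05, where 0.047% of all genes did. At an unadjusted p under 0.05 there were 2 members, MAP3K19 and MAP3K20-AS1, where 5.1% of all genes reached it. The median log2 difference, CSH71 minus untreated, was -0.01 over the members (0.01 after median centring of the arrays, and -0.10 to 0.04 with 1 array left out) and -0.01 over all genes. Of the members 22 had a positive difference and 26 a negative one, where 47.9% of all genes had a positive and 52.0% a negative one. The median size of the difference, regardless of sign, was 0.13 for the members and 0.14 for all genes.

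The CSH71 and untreated arrays did not overlap for 15 of the 48 members, 4 higher and 11 lower, where 31.6% of all genes did not overlap, 15.0% higher and 16.6% lower. A log2 difference of at least 0.5 in either direction was seen in 2 members, where 4.6% of all genes had one, and 0 members reached 1, where 0.235% of all genes did. For 46 members the 95% interval of the log2 difference lay within -1 and 1, which is a 2-fold change, where 93.7% of all genes had such an interval. The 2 others were MAP3K19 and MAP4K3-DT. The table gives no background level, so an interval bounds the change of the measured signal and not that of the RNA. The standard errors of the members ran from 0.16 to 0.29. They come from limma, which draws each gene's variance towards a value shared by all genes. A gene with close replicates therefore still had an SE of at least 0.16, the smallest over all genes.

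**Figure D1:**
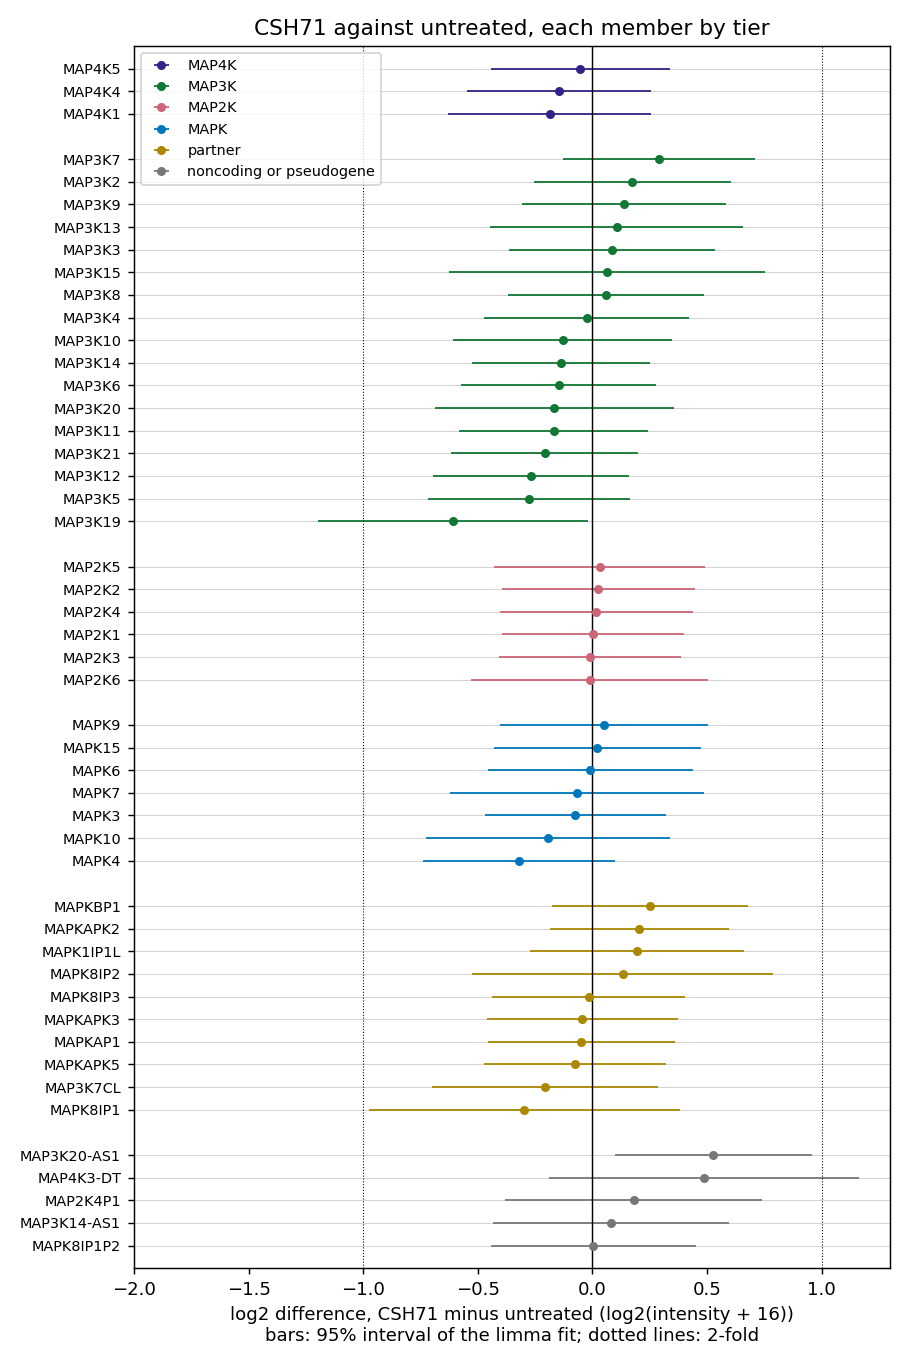
The log2 difference (CSH71 minus untreated, log2(intensity + 16)) of each of the 48 members, with points for the estimate, bars for the 95% interval of the limma fit, and colours for the tiers. All 6 MAP2K points lie next to 0, and the bars of MAP3K19 and MAP4K3-DT alone pass a dotted 2-fold line.

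The MAP4K tier holds the kinases furthest from the MAP kinases themselves. MAP4K1, or HPK1, is a blood-cell kinase that dampens antigen receptor signalling. It had intensities of 347 and 298 with CSH71, against 336 and 404 in untreated cells, and these overlapped (log2 difference -0.19 ± 0.19, SE). MAP4K4, a kinase that signals towards JNK, had 925 and 828 with CSH71 and 970.4 and 968 in untreated cells. Both treated arrays were below both untreated ones, by -0.14 ± 0.17. MAP4K5 had 599 and 592 with CSH71 and 604 and 632 in untreated cells, which was also without overlap but only -0.05 ± 0.17. All 3 differences were negative, with a median of -0.14, and none was larger than its SE (limma adjusted p = 0.999 for each). The median was -0.22 without CSH71 replicate 1, -0.066 without CSH71 replicate 2 and -0.059 without untreated replicate 2.

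The MAP3K tier is the widest, because each kinase in it answers to its own kind of signal. Its 17 members had a median log2 difference of -0.13, with 7 positive and 10 negative, and the median was 0.04 without untreated replicate 2. Of them 1 was higher and 6 were lower without overlap. MAP3K7 encodes TAK1, which relays signals of TNF and interleukin-1 receptors to JNK, p38 and NF-κB. It had intensities of 1712 and 1578 with CSH71, against 1245 and 1446 in untreated cells. It was the single MAP3K gene whose treated arrays both exceeded the untreated ones, at 0.29 ± 0.18 with an interval of -0.13 to 0.71 (limma adjusted p = 0.999). MAP3K2, or MEKK2, which acts in the ERK5 pathway, had 949.8 and 813 with CSH71 and 728 and 830.0 in untreated cells. Its groups overlapped (0.17 ± 0.18).

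Of the named MAP3K genes, 4 had both treated arrays below both untreated ones. MAP3K5 encodes ASK1, a kinase activated by oxidative stress and TNF. It had 485 and 437 with CSH71 and 506 and 622 in untreated cells (-0.28 ± 0.19). MAP3K12, known best as the axon injury kinase DLK, had 99.0 and 82.7 with CSH71 and 106 and 119 in untreated cells (-0.27 ± 0.18). MAP3K21, a mixed-lineage kinase, had 567 and 495 with CSH71 and 611 and 618 in untreated cells (-0.21 ± 0.17). The limma adjusted p was 0.999 for each of these.

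The largest difference in the tier was that of MAP3K19, whose intensities were 42.9 and 20.4 with CSH71 and 55.6 and 53.8 in untreated cells. Both treated arrays were lower, and they lay further from each other than the brighter of them lay from the untreated arrays. Its log2 difference was -0.61 ± 0.25, with an interval of -1.20 to -0.02 and a limma adjusted p of 0.965. Only 16.1% of all genes had a mean signal as low, so the constant added before the log carries weight here. With a constant of 1 the difference was -0.86, and with 64 it was -0.32. It also rested on CSH71 replicate 2: without that array it was -0.26, and without the other treated array it was -0.96.

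The other MAP3K genes were MAP3K3, MAP3K4, MAP3K6, MAP3K8, MAP3K9, MAP3K10, MAP3K11, MAP3K13, MAP3K14, MAP3K15 and MAP3K20. Their log2 differences ran from -0.17 for MAP3K11, the mixed-lineage kinase MLK3, to 0.14 for MAP3K9, another kinase of that family. MAP3K14, the gene of NIK, had close replicates, with 176 and 179.8 with CSH71 and 198 and 197 in untreated cells (-0.14 ± 0.16). Its SE lay at the floor set by the shared variance and not at the spread of its own replicates. MAP3K15 showed wide replicates, with 67.5 and 33.0 with CSH71 and 36.4 and 55.5 in untreated cells (0.06 ± 0.29).

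The MAP2K tier, where the many upstream kinases converge, showed the smallest differences. The 6 genes had log2 differences between -0.01 and 0.03, each with overlapping groups. Of all genes, 12.7% had a difference no larger than the largest in this tier. MAP2K1, or MEK1, which activates ERK, had intensities of 1106 and 1048 with CSH71 and 1042 and 1109.6 in untreated cells. Its log2 difference was 0.00 ± 0.17 with an interval of -0.39 to 0.40. MAP2K2, or MEK2, the other ERK activator, had 154 and 134 with CSH71 and 131 and 150.2 in untreated cells (0.03 ± 0.18).

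The remaining MAP2K genes feed the stress branches and ERK5. MAP2K4 activates JNK and had 245 and 255 with CSH71 and 226 and 270.3 in untreated cells (0.02 ± 0.18). MAP2K3 activates p38 and had 296 and 282 with CSH71 and 279 and 303 in untreated cells (-0.01 ± 0.17). MAP2K6, the other p38 activator, had 209 and 263 with CSH71 and 201 and 278 in untreated cells (-0.01 ± 0.22). The groups overlapped for these activators of p38 as they did for MAP2K1, MAP2K2 and MAP2K4. MAP2K7, which also activates JNK, was not among the members. MAP2K5, which activates ERK5, had 383 and 339 with CSH71 and 311 and 399.5 in untreated cells (0.03 ± 0.19). For each of the 6 at least 1 of the gaps between replicates was larger than the difference between the groups. This was common, as only 20.6% of all genes had a difference larger than both gaps. The estimates lie closer to 0 than their intervals can resolve: the narrowest interval in the tier still reached from -0.39 to 0.40.

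Of the 7 MAP kinases, 2 had a positive and 5 a negative log2 difference, with a median of -0.07, which was 0.08 without untreated replicate 2. MAPK3, which encodes ERK1, had intensities of 752 and 728 with CSH71, against 755 and 806 in untreated cells. The treated arrays were lower without overlap, by -0.07 ± 0.17. MAPK9, which encodes JNK2, had 433 and 334 with CSH71 and 358 and 376 in untreated cells (0.05 ± 0.19). MAPK10 encodes JNK3, a kinase known mainly from neurons, and had 39.4 on both treated arrays against 36.0 and 61.3 in untreated cells (-0.19 ± 0.23). Neither of these JNK genes separated the groups, and MAPK8, which encodes JNK1, was not among the members.

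MAPK7 encodes ERK5 and had 388 and 264 with CSH71 and 299 and 379 in untreated cells (-0.07 ± 0.23). MAPK6, the atypical kinase ERK3, had 990.4 and 898 with CSH71 and 851 and 1058 in untreated cells (-0.01 ± 0.19). MAPK15 was at 0.02 ± 0.19. The widest separation in the tier was that of MAPK4, the atypical kinase ERK4, with 60.4 and 48.5 on the treated arrays and 71.6 on both untreated ones. Its log2 difference was -0.32 ± 0.18 with an interval of -0.74 to 0.10 (limma adjusted p = 0.999). For comparison, the 3 p38 genes outside this set had differences from -0.10 to -0.07.

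**Figure D2:**
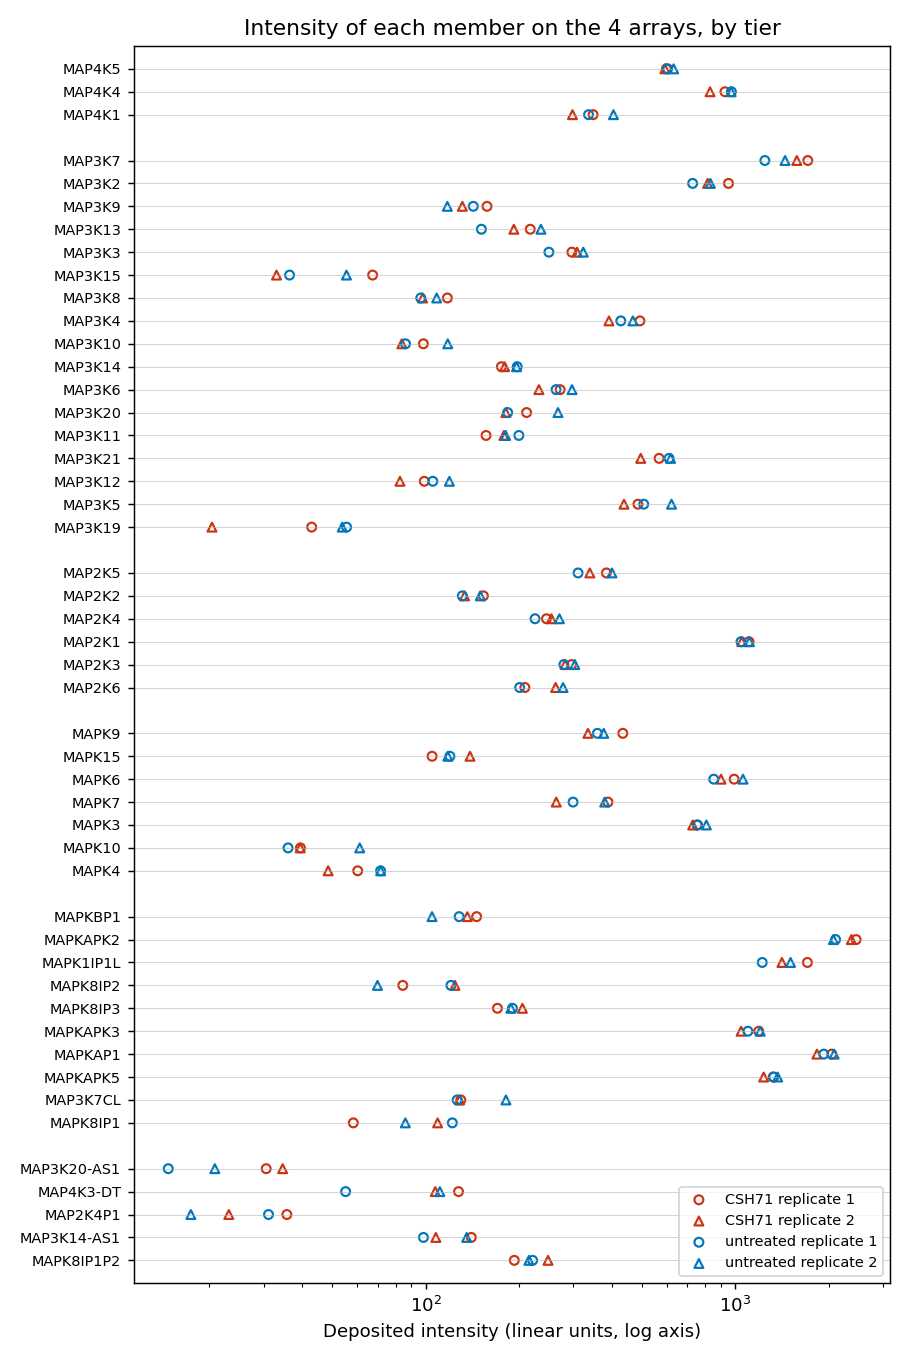
Deposited intensity (linear units on a log axis) of each member on the 2 CSH71 arrays (red) and the 2 untreated arrays (blue), with circles for replicate 1, triangles for replicate 2, and a gap between tiers. Red and blue symbols lie together for most genes, and the red symbols both lie to the right for 4 genes, MAP3K7, MAPKBP1, MAPKAPK2 and MAP3K20-AS1.

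The partners include kinases that MAP kinases activate and scaffolds that hold a cascade together. MAPKAPK2, or MK2, is activated by p38 and controls the stability of cytokine mRNA, TNF among them. It had intensities of 2452 and 2367 with CSH71, against 2105 and 2071 in untreated cells. Both treated arrays were higher and replicates were close, and its difference of 0.20 ± 0.16 was larger than both gaps between replicates (0.05 with CSH71 and 0.02 untreated, in log2). Among the members that held for 7, where 20.6% of all genes did so. MAPKAPK2 still missed the limma threshold (adjusted p = 0.999). The related kinases MAPKAPK3 and MAPKAPK5 were at -0.04 ± 0.18 and -0.08 ± 0.17.

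MAPKBP1, whose product binds JNK, had 146 and 136 with CSH71 and 128 and 105 in untreated cells (0.25 ± 0.18), but its dimmer probe set gave -0.21, so its direction is not settled. MAPK1IP1L had 1707 and 1413 with CSH71 and 1220.4 and 1506 in untreated cells (0.19 ± 0.20), with 0.05 from its other probe set. MAPKAP1, the mTORC2 subunit, had 2047 and 1833 with CSH71 and 1928 and 2083 in untreated cells (-0.05 ± 0.17). MAP3K7CL, named for its likeness to the end of TAK1, had 129.9 and 129 with CSH71 and 126 and 182 in untreated cells (-0.21 ± 0.21).

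The 3 JIP scaffolds bring JNK together with its upstream kinases. MAPK8IP1 had 58.4 and 109 with CSH71 and 122 and 86.0 in untreated cells, so replicates of a group differed by more than the groups did (-0.30 ± 0.29). MAPK8IP2 behaved in the same way, with 84.4 and 124 with CSH71 and 121 and 69.9 in untreated cells (0.13 ± 0.28). MAPK8IP3 was at -0.02 ± 0.18.

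The 5 noncoding RNAs and pseudogenes all had positive log2 differences, with a median of 0.18, where 47.9% of all genes had a positive difference. The value of MAPK8IP1P2 was next to 0 and became -0.02 with the mean of its probe sets. Of the 5, 4 had a mean signal below that of the median gene. Positive differences were more common there, in 3988 of the 7442 genes at or below the median gene. MAP3K20-AS1, an RNA from the strand opposite MAP3K20, had intensities of 30.6 and 34.6 with CSH71, against 14.8 and 20.9 in untreated cells. This was the largest positive difference among the members, 0.53 ± 0.18 with an interval of 0.10 to 0.96, and it did not pass (limma adjusted p = 0.928). Only 6.96% of all genes were as dim. MAP3K20 itself, the ribotoxic stress kinase ZAK, had 212 and 181 with CSH71 and 184 and 268 in untreated cells (-0.17 ± 0.22). Whether the probe sets of such overlapping genes tell the strands apart was not tested.

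MAP4K3-DT, a transcript that starts next to MAP4K3 and runs away from it, had 128 and 107 with CSH71 and 55.2 and 111 in untreated cells. The difference of 0.49 ± 0.28 rested on untreated replicate 1: without that array it was 0.07, and without the other untreated array it was 0.90. MAP3K14-AS1 had 140.4 and 108 with CSH71 and 98.4 and 136 in untreated cells (0.08 ± 0.22). The pseudogenes MAP2K4P1 (0.18 ± 0.24) and MAPK8IP1P2 (0.00 ± 0.19) resemble coding genes, and signal from their parent genes cannot be told apart here. MAPK8IP1P2 had 4 probe sets, of which 3 held the same values.

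The gaps between replicates leaned in the same direction in many of these genes, as they did in genes brighter than the median gene. CSH71 replicate 1 was above CSH71 replicate 2 for 37 of the 48 members, and untreated replicate 2 was above untreated replicate 1 for 35. Both held for 31 members, or 64.6%, where 37.0% of all genes and 55.6% of genes brighter than the median gene showed both. Of the members 32 were brighter than the median gene, and 23 of those showed both. By tier it was 2 of 3 MAP4K genes, 12 of 17 MAP3K genes, 4 of 6 MAP2K genes, 6 of 7 MAP kinases, 5 of 10 partners and 2 of 5 noncoding RNAs or pseudogenes. The median size of the gap was 0.19 between the treated arrays and 0.20 between the untreated arrays, against 0.19 and 0.22 over all genes. The median size of the difference between groups was 0.13, against 0.14 over all genes. A gap between single arrays is wider by construction than a difference of group means, so gaps above differences say nothing particular about the members.

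**Figure D3:**
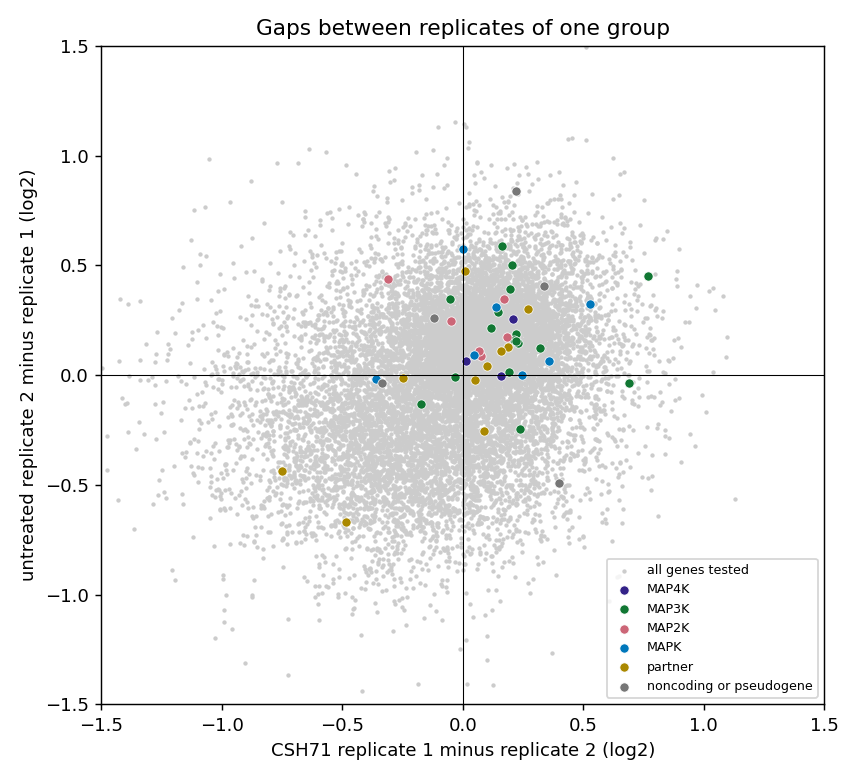
For each gene, the log2 gap of CSH71 replicate 1 over replicate 2 (horizontal) and of untreated replicate 2 over replicate 1 (vertical), with grey points for all genes tested and colours for the tiers; 23 genes lie beyond the axes. Of the 48 members, 31 lie above 0 on both axes.

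Other genes of the pathways were read from 5 lists that hold 96 genes, of which 62 were measured. By limma 1 of the 62 rose and 0 fell, where 0.0403% of all genes rose and 0.047% passed in either direction. That gene was JUN, the AP-1 subunit that JNK phosphorylates, with intensities of 857 and 800.1 under CSH71, against 88.7 and 127 in untreated cells. Its log2 difference was 2.79 ± 0.21 (limma adjusted p = 0.0226). Of the genes that act upstream of JNK, MAP3K5, MAP3K7 and MAP2K4, picked as examples, were at -0.28, 0.29 and 0.02. JNK activity was not measured, and whether it had a part in the rise of JUN was not tested. JUN lost its call when either untreated array was left out, after quantile normalization, with an added constant of 1, when all probe sets were fitted and with crossed replicate numbers as a block.

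The 13 measured transcription factor substrates had a median log2 difference of 0.04. JUND, another AP-1 subunit, had 2342 and 2265 with CSH71 and 1246 and 1348 in untreated cells (0.82 ± 0.17). MEF2D, a target of p38 and ERK5, had 2904 and 2735 with CSH71 and 1959 and 1942 in untreated cells (0.53 ± 0.17). Neither passed (limma adjusted p = 0.744 and 0.928). With an added constant of 64 JUND passed (limma adjusted p = 0.0285). With a variance prior that follows intensity both passed (limma adjusted p = 6.0e-14 for JUND and 1.8e-07 for MEF2D). Neither passed under any other processing tried. The other lists had medians next to 0. Cascade kinases under other names had 0.01 over 13 genes, with TNIK, a relative of MAP4K4, at 0.41 ± 0.21, MOS at 0.23 ± 0.18 and PBK at -0.23 ± 0.19.

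GTPases and adaptors above the cascade had a median of -0.02 over 18 genes. The Ras activator SOS2 was at 0.33 ± 0.18, SOS1 at -0.24 ± 0.16 and RASGRP1, which activates Ras in T cells, at -0.28 ± 0.18. Scaffolds and partners had a median of 0.02 over 15 genes. SH3RF1, a scaffold of the JNK pathway, had 70.1 and 69.4 with CSH71 and 98.0 and 141 in untreated cells, the largest negative value of the lists (-0.64 ± 0.21, limma adjusted p = 0.928). LAMTOR4 was at 0.23 ± 0.17 and SHOC2 at 0.21 ± 0.17. The list of kinases and other proteins below the cascade had 3 measured genes: MKNK1 at 0.25 ± 0.18, MKNK2 at -0.13 ± 0.17 and STMN1 at -0.04 ± 0.17.

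**Figure D4:**
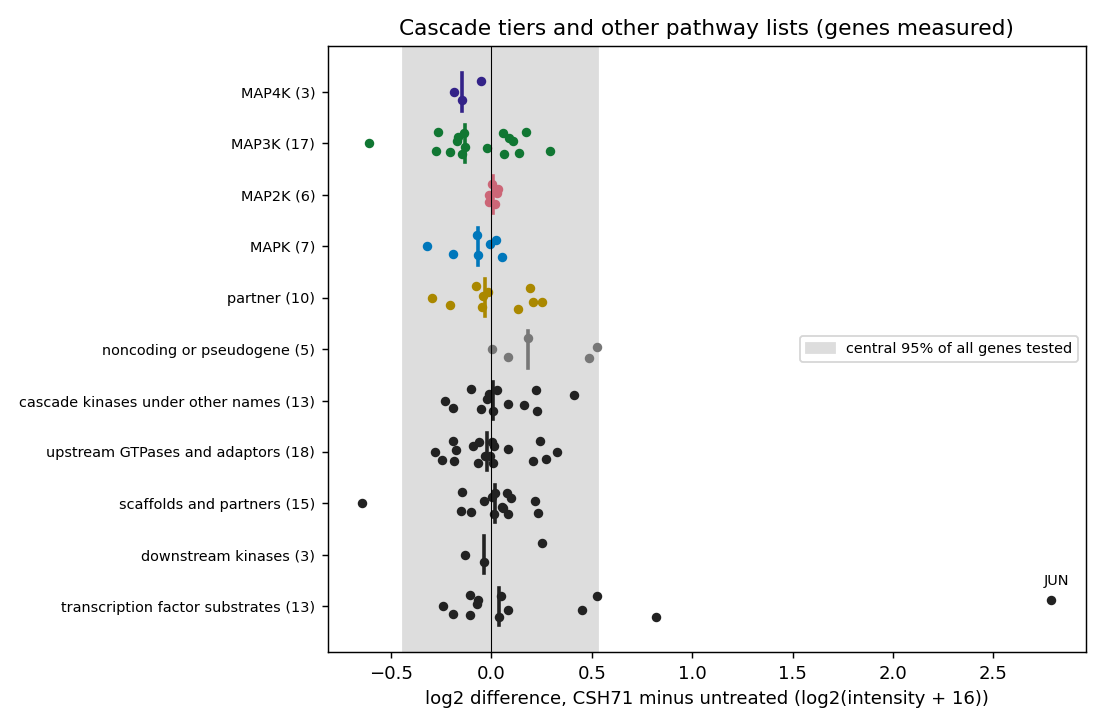
Log2 differences (CSH71 minus untreated) of the members by tier and of the other pathway genes by list, with a point per gene, a bar at each median, the number of genes in brackets and a grey band for the central 95% of all genes tested. JUN stands alone at 2.79, while the tier medians lie between -0.14 and 0.18.

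The AP-1-type pattern TGANTCA and the cAMP response element TGACGTCA were looked for in the promoters of the members. They were chosen since JUN rose and its protein binds such sites. N stands for any base, so TGANTCA is wider than the AP-1 site. The windows, from RefSeq on GRCh38.p14, span 300 bases around an annotated start, and 40 of the 48 members had at least 1. Both motifs read the same on either strand. TGANTCA was found for 3 of the 40 genes, or 7.5%, where 9.37% of all genes with a window held it. All 3 matches read TGAGTCA, while the share over all genes counts any base at N. TGACGTCA was also found for 3 of the 40, where 2.25% of all genes held it. The stretches with each match follow, 5′ to 3′ on the gene's strand, with the motif in capitals.
MAP3K8, chr10:30434108-30434164, plus strand: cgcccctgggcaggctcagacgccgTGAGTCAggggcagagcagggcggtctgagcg
MAP2K3, chr17:21284645-21284701, plus strand: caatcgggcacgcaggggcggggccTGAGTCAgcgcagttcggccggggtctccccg
MAPK10, chr4:86370874-86370930, minus strand: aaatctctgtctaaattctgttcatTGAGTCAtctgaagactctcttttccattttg
MAPK10, chr4:86360100-86360157, minus strand: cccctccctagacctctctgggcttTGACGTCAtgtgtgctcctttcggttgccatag
MAP3K13, chr3:185282832-185282889, plus strand: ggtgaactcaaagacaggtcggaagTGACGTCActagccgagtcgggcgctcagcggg
MAPK8IP3, chr16:1706063-1706120, plus strand: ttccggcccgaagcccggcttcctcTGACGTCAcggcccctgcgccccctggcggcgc

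The 2 MAPK10 stretches come from different annotated starts. Among the genes with TGANTCA, MAP3K8, the kinase TPL2 that activates ERK in immune cells, had a log2 difference of 0.06 ± 0.18. MAP2K3 had -0.01 ± 0.17 and MAPK10 -0.19 ± 0.23. Those with the cAMP response element had 0.11 ± 0.23 for MAP3K13, -0.19 ± 0.23 for MAPK10 and -0.02 ± 0.18 for MAPK8IP3. None of the 5 genes separated the treated from the untreated arrays. A match is a stretch of letters in this window and was not tested for binding.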

How the data were processed

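The authors deposited 1 intensity, on a linear scale, per probe set and array. Affymetrix Expression Console is named in the submitters' processing notes. The sources used here give neither its version nor the summarisation, background correction or normalization. Of 53617 probe sets, 16098 had a symbol in the platform annotation. The brightest probe set per gene by mean intensity was used, which left 14884 genes, and no detection filter was applied. Entrez identifiers changed 0 symbols. Values were transformed to log2(intensity + 16), which understates changes of dim genes, and compared with limma 3.58.1 in R 4.3.3, with 2-sided p-values adjusted by the Benjamini-Hochberg method over all 14884 genes. The 4 arrays limit the precision. The fit was tested on simulated data with independent normal errors. That test checked the estimate of 4-fold changes and the share of false calls, and it set no bar for finding 2-fold changes.

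The members, lists, constant and naming rule were chosen with earlier results of these data known. The rule named, per tier, the 3 brightest members, up to 4 of smallest p, and any that were called or differed by at least 0.5 without overlap; per list, up to 3 of smallest p. Other members are given by name, some with values, chosen after these were seen. Same-numbered replicates were checked for pairing, and their deviations from the group means correlated at -0.29 over genes. This gave no sign of pairing by number, and crossed numbers correlated at 0.29. With 2 arrays per group the check is a single contrast of arrays, so it cannot exclude pairing. The median absolute log2 difference was 0.17 between CSH71 replicate 2 and untreated replicate 1. It was 0.18 between CSH71 replicate 1 and untreated replicate 2. Within groups it was larger, 0.19 for the CSH71 arrays and 0.22 for the untreated arrays. The other pairs across groups had 0.21 and 0.24. The cause was not tested. No group reached the 4 samples needed to look for outlying arrays. Figures were drawn with matplotlib 3.10.9.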

Additional observations from a re-analysis of the deposited data

How the results depend on the processing

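The number of members called by limma was 0 under all 14 alternatives: the replicate block, quantile normalization, median centring, added constants of 1 and 64, removal of the dimmest 40% of genes, an intensity trend in the variance prior, averaging over all probe sets of a gene, a fit of all probe sets, each array left out, and crossed replicate numbers as a block, which was added after seeing the data. Between 0 and 3 members had an unadjusted p under 0.05 there. With the replicate block 1 member did, the smallest adjusted p over the members was 1, and 27 of all genes were called. The labels state no pairing, and the check of the shared numbers cannot decide it.

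The count of other pathway genes called was 1 as reported. It was 0 after quantile normalization, with a constant of 1, in the fit of all probe sets and with the crossed block. With a constant of 64 it was 2, JUN and JUND. With the intensity trend it was 4, with JUN, JUND and MEF2D among them. It ran from 0 to 1 with an array left out, where a lone array is assumed to vary like the other group. The cause was not tested. With an array left out, the median log2 difference ran from -0.10 to 0.042 over the members, -0.22 to -0.059 for MAP4K, -0.18 to 0.038 for MAP3K, -0.086 to 0.13 for MAP2K, -0.16 to 0.083 for MAP kinases, -0.044 to 0.069 for partners, and 0.066 to 0.38 for noncoding RNAs and pseudogenes.

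Small differences turned sign. MAP2K3 was at 0.0034 after quantile normalization and 0.010 after median centring, MAPK6 at 0.012 after median centring, and MAPK8IP1P2 at -0.024 with the mean of its probe sets. With an array left out, the range crossed 0 for 27 members. Among genes named by rule it was -0.066 to 0.046 for MAP2K3, -0.043 to 0.046 for MAP2K1, -0.11 to 0.14 for MAP2K4, -0.066 to 0.12 for MAP2K2, -0.14 to 0.21 for MAP2K5, -0.48 to 0.092 for MAPK10, -0.33 to 0.20 for MAPK7, -0.16 to 0.15 for MAPK6, -0.13 to 0.23 for MAPK9, -0.67 to 0.079 for MAPK8IP1, -0.44 to 0.029 for MAP3K7CL, -0.13 to 0.030 for MAPKAP1, -0.16 to 0.17 for MAPK8IP1P2, -0.12 to 0.28 for MAP3K14-AS1, and -0.067 to 0.43 for MAP2K4P1, and STMN1 of the lists had -0.13 to 0.052. Among the other members it was -0.23 to 0.21 for MAP2K6, -0.33 to 0.065 for MAP3K10, -0.19 to 0.40 for MAP3K13, -0.32 to 0.45 for MAP3K15, -0.42 to 0.085 for MAP3K20, -0.090 to 0.26 for MAP3K3, -0.18 to 0.14 for MAP3K4, -0.057 to 0.17 for MAP3K8, -0.16 to 0.20 for MAPK15, -0.20 to 0.47 for MAPK8IP2, -0.14 to 0.11 for MAPK8IP3 and -0.14 to 0.049 for MAPKAPK3. The sign held under every alternative for 21 of the 48 members, MAP3K7, MAPKAPK2, MAP3K19 and MAP3K20-AS1 among them. Without a background level, the lowest intensities have the least certain differences.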
